A study of Mus musculus with 10 samples.

Results

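The genes described here were 10 integrin subunits of leukocytes, microglia and astrocytes, *Itgam*, *Itgal*, *Itgb2*, *Itga4*, *Itga6*, *Itgav*, *Itgb1*, *Itgb3*, *Itgb5* and *Itgb8*. They were chosen by their symbols, and all 10 were found among the 25232 genes of the deposited table. RNA was sequenced from the spinal cord of 90 days old female mice of the strain labelled C57BL/6 (C57BL/6J in the methods), 5 of them wild type (WT) and 5 *SOD1G93A*. The *SOD1G93A* mouse carries a human *SOD1* transgene, present in many copies, with a mutation that causes amyotrophic lateral sclerosis, and the WT mice were littermates. Lumbar cord was dissected according to the methods, whereas the labels say spinal cord without a level. The table gives 1 level per gene, the base mean, which is the mean over all 10 libraries of the read counts after division by the size factor of each library. WT and *SOD1G93A* libraries enter that mean together. The other columns hold the outcome of the comparison of both genotypes made before deposit and were not used, so no difference between the genotypes is described here.

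Integrins are receptors made of 1 alpha and 1 beta subunit that span the cell membrane, and they bind matrix proteins or receptors on other cells. The beta2 subunit, encoded by *Itgb2*, is found on leukocytes and pairs with the alpha subunits of *Itgal* (CD11a), *Itgam* (CD11b), *Itgax* (CD11c) and *Itgad*. Of these, the product of *Itgam* forms complement receptor 3, which microglia use to take up material coated with complement. The beta1 subunit pairs with many alpha subunits, among them alpha4, which lets leukocytes bind VCAM-1 on blood vessels, and alpha6, a laminin receptor. The alphav subunit pairs with beta1, beta3, beta5, beta6 and beta8, and several of these receptors bind vitronectin or release active TGF-beta from its latent complex.

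The libraries were of similar depth. A gene seen with a single read in a single library has a base mean that depends only on the size factor of that library, and 716 genes fell on exactly 10 such lowest values. The size factors read from them lay between 0.840 and 1.15, so that the deepest library had 1.37 times the depth of the shallowest. They cannot be tied to single mice or to a genotype. The base means of all genes summed to 22158933, and 4259 genes were listed at 0. *Sod1*, the mouse gene, had a base mean of 3849, which as a mean over both genotypes does not check the labels. The spread between mice is not known, and the 95% intervals given below (exact Poisson intervals, computed for the fewest reads that these size factors allow) cover counting error only. They would be too narrow if both reads of a pair were counted, which is not known. Levels of different genes were compared per kb of exon, with the lengths of all annotated exons of a gene merged, because a longer gene gathers more reads at the same number of transcripts.

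The tissue was checked against marker genes. The 6 Hox genes listed for the lumbar position had base means per kb between 17.1 and 256, and the forebrain genes *Emx1*, *Emx2* and *Neurod6* had 0.455, 0.130 and 36.7. *Neurod6* thus lay within the range of the Hox genes. The highest marker lists by median were those of oligodendrocytes (9637 per kb) and neurons (4572 per kb), followed by astrocytes (723.8 per kb) and microglia and macrophages (241 per kb). The defining markers of T cells, *Cd3d*, *Cd3e* and *Cd3g*, had base means of 1.19, 2.73 and 1.26. Of the neutrophil genes, *Ly6g* had a base mean of 0.580, while *S100a8* and *S100a9* had 36.1 and 61.4.

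The 10 integrin genes spanned a 194-fold range per kb of exon. *Itgb1* was the highest and *Itgal* the lowest, and the order between them was *Itgb5*, *Itgav*, *Itga6*, *Itgam*, *Itgb8*, *Itgb2*, *Itgb3* and *Itga4*. Of the 9 pairs of neighbours in this order, only *Itga6* and *Itgam* had overlapping counting intervals per kb of merged exon. Over the longest transcript, *Itga6* stood at 321 per kb and *Itgam* at 162 per kb. Whether the other neighbours differ beyond the spread between mice cannot be told from a mean. Among the 20360 genes with a base mean above 0 and an exon length, the median was 63.5 per kb, and 7 of the 10 integrins lay above it. The 10 genes together gave 0.0493% of the summed base mean of the table.

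**Figure D1:**
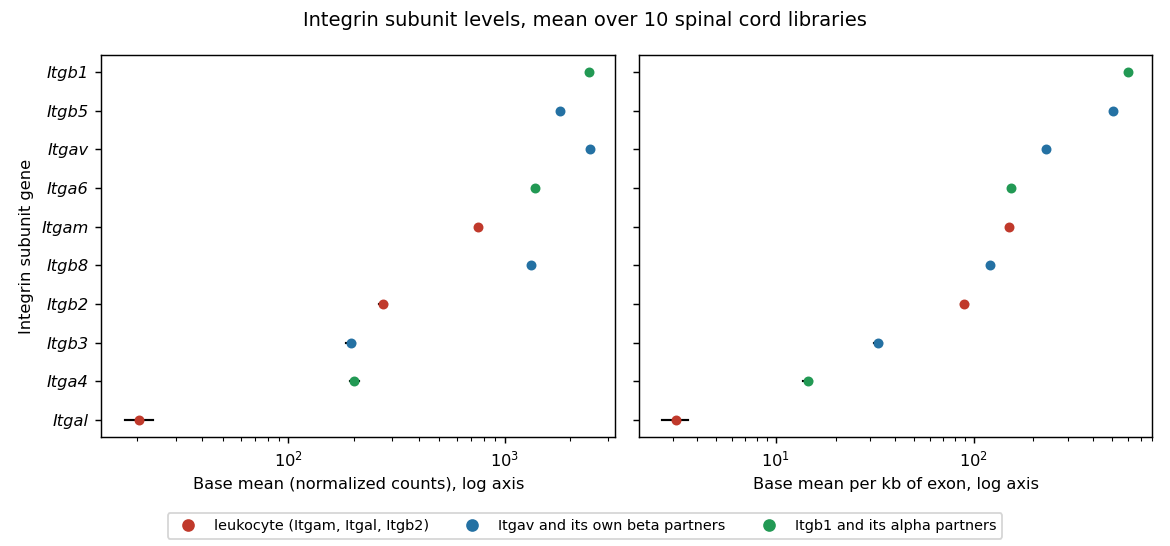
Levels of the 10 integrin subunit genes (rows), as base mean in normalized counts on the left and as base mean per kb of exon on the right, both on log axes. Points are the mean over 10 libraries of both genotypes, black lines are 95% counting intervals, mostly shorter than the point, and colours mark the subunit families; *Itgb1* stands at 602 per kb and *Itgal* at 3.11 per kb.

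Promoter sequence was at hand for 6 of the 10 genes, *Itga4*, *Itgav*, *Itgam*, *Itgb1*, *Itgb5* and *Itgb8*, as RefSeq windows of 300 bases on GRCm38.p6 that reach from 250 bases before the start to 50 after. The windows differed in CpG dinucleotides, which are frequent in promoters of broadly active genes. *Itgb1*, *Itgav* and *Itgb5* held 27, 24 and 20, *Itgb8* and *Itga4* held 13 and 10, and *Itgam* held 6, against a median of 7 over all 32851 windows. The ratio of observed to expected CpG was 0.798 for *Itgb1*, 0.708 for *Itgav*, 0.619 for *Itgb5* and 0.488 for *Itgb8*. It was 0.322 for *Itga4* and 0.316 for *Itgam*, both under the median of 0.384 over all windows. *Itgb1* was at percentile 78.9 of all windows, *Itga4* at 44.3 and *Itgam* at 43.7. The letters GAGGAA, read on both strands and part of the purine-rich sites bound by Ets factors such as PU.1 of myeloid cells, occurred 3 times in the window of *Itgam*, 2 times in that of *Itgav* and 1 time in that of *Itgb1*, and 28.3% of all windows held them. These matches describe the letters and are no evidence of binding.

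The 250 bases before the start are shown for the gene with the fewest and the gene with the most CpG dinucleotides, from chr7:128062390-128062639 for *Itgam* and from chr8:128685404-128685653 for *Itgb1*, both on the plus strand and with each CpG in capitals. They hold 6 and 21.
Itgam: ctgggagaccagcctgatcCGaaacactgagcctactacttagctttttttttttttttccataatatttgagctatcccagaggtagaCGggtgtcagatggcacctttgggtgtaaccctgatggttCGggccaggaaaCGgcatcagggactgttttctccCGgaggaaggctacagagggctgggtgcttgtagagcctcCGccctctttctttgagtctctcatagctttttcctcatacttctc
Itgb1: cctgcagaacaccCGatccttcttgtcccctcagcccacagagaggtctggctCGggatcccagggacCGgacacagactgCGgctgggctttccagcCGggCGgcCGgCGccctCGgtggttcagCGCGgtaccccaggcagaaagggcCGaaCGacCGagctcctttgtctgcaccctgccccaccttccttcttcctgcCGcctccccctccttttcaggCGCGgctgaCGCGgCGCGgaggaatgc

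The leukocyte integrins were led by *Itgam*. It encodes CD11b, by which microglia are often sorted, and occupies bases 128062640 to 128118491 of chromosome 7 (GRCm38, plus strand). Its base mean was 757 (95% counting interval 738 to 776), which rests on 6357 to 8715 reads over all libraries. Per kb of exon its level was 151 (147 to 154), at percentile 67.1 of the genes above 0.

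*Itgb2*, the beta2 subunit that every CD11 subunit needs to reach the cell surface, lies on chromosome 10 from 77530252 to 77565708. Its base mean was 273 (262 to 285), and its level was 89.6 per kb (86.0 to 93.3). The transcript of the shared beta chain was therefore lower per kb than that of one of its partners, with *Itgam* at 1.68 times *Itgb2* and at 2.77 times without a length. The 4 alpha subunits that pair with beta2, summed, were at 1.93 times *Itgb2* per kb, and *Itgam* made up 87.2% of that sum.

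*Itgal*, the CD11a subunit of LFA-1, the integrin by which lymphocytes bind ICAM-1, was near the bottom of the range. It lies on chromosome 7 from 127296260 to 127335138 and had a base mean of 20.4 (17.5 to 23.7), resting on 171 to 235 reads. Per kb its level was 3.11 (2.66 to 3.61), and *Itgam* was 48.5 times higher. The interval for *Itgal* overlapped that of *Itgad* at 2.67 per kb (2.17 to 3.24). *Itgax* stood between them and *Itgam*, at 16.3 per kb (15.1 to 17.6), and *Itgam* was 9.24 times higher than *Itgax*.

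The CD11 genes share a neighbourhood on chromosome 7. *Itgam*, *Itgax* and *Itgad* follow each other on the plus strand with gaps of 11055 and 3718 bases, and *Itgal* lies 728 kb before *Itgam*. None of the 100-base stretches of *Itgal* transcripts was found in a transcript of another gene in GENCODE. The same held for *Itgb2*, which lies on another chromosome. For *Itgam*, 64.3% of its 100-base stretches also belong to *Gm49368*, a gene model on the same strand that shares 3450 exonic bases with it. The deposited table lists no *Gm49368*, and how reads in the shared exons were assigned is not given in the sources used here.

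The beta1 family held both a high and a low alpha subunit. *Itgb1*, on chromosome 8 from 128685654 to 128733200, encodes the beta subunit with the most partners and had a base mean of 2456 (2423 to 2490). Its level of 602 per kb (594 to 610) was the highest of all 26 mouse integrin subunits and lay at percentile 91.4 of the genes above 0. Per kb it was 6.72 times higher than *Itgb2*.

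*Itga6*, the laminin-binding subunit on chromosome 2 from 71745616 to 71858416, had a base mean of 1386 (1361 to 1411) and 154 per kb (151 to 156). Its merged exons are 9.03 kb long and its longest transcript 4.31 kb, and over the longest transcript its level was 321 per kb. The subunit can pair with beta4 as well as with beta1. *Itgb4* was higher than *Itga6* per kb of merged exon, at 229.8 against 154, and stood at 0.808 times *Itga6* over the longest transcripts, so the order of this pair depended on the length used.

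*Itga4*, the subunit of VLA-4 by which leukocytes enter the nervous system, was low. It lies on chromosome 2 from 79255426 to 79333123 and had a base mean of 202 (192 to 212), or 14.4 per kb (13.8 to 15.1), at percentile 31.4. *Itga6* was 10.6 times higher per kb of merged exon and 6.49 times higher per kb of coding sequence. The other beta partner of alpha4, encoded by *Itgb7*, had a level of 10.7 per kb. It stood at 0.744 times *Itga4* per kb of merged exon, 0.189 times per kb of coding sequence and 0.147 times without a length. Exons of *Itga4* overlap 1124 exonic bases of *Cerkl* on the opposite strand, which are 8.04% of its own exonic bases. The alpha subunits that pair with beta1, alphav included, summed to 1.44 times *Itgb1* per kb of merged exon, 2.17 times per kb of coding sequence and 2.92 times without a length.

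The alphav family, with receptors for vitronectin and latent TGF-beta, was high in *Itgav* and *Itgb5* and low in *Itgb3*. *Itgav*, on chromosome 2 from 83724397 to 83806916, had the highest base mean of the 10 genes, 2497 (2463 to 2531), resting on 20975 to 28752 reads. That interval overlapped the interval of *Itgb1* at 2456 (2423 to 2490). With 10.7 kb of merged exon, *Itgav* had a level of 232 per kb (229 to 236), which ranked 3 of the 10. Its exons share 634 bases with *Gm13684* on the opposite strand.

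*Itgb5*, whose product forms the vitronectin receptor alphavbeta5, lies on chromosome 16 from 33829665 to 33949338. Its base mean was 1804 (1776 to 1833), and its level of 508 per kb (499.8 to 516) was second only to *Itgb1*. *Itgb8*, on chromosome 12 from 119158022 to 119238802 on the minus strand, encodes the subunit of alphavbeta8, the TGF-beta activating integrin of astrocytes and other glia. It had a base mean of 1332 (1308 to 1357) and 120.5 per kb (118 to 123).

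*Itgb3*, the beta subunit of the vitronectin receptor alphavbeta3 and of the platelet fibrinogen receptor, lies on chromosome 11 from 104608000 to 104670476. It was the lowest of these beta subunits among the 10, with a base mean of 194 (185 to 204) and 32.9 per kb (31.3 to 34.5). The remaining partner, *Itgb6* of epithelial cells, had a base mean of 1.58 and 0.222 per kb. Per kb of merged exon, *Itgb5* was 15.4 times higher than *Itgb3* and 4.22 times higher than *Itgb8*, and it made up 76.8% of the sum of *Itgb3*, *Itgb5*, *Itgb6* and *Itgb8*. That share was 52.7% per kb of coding sequence, with *Itgb8* then at 579 and *Itgb5* at 737 per kb, and *Itgb5* was then 8.97 times higher than *Itgb3*. Summed with *Itgb1*, these partners stood at 5.44 times *Itgav* per kb of merged exon, and at 3.04 times per kb of coding sequence. Without *Itgb1* they stood at 2.85 times *Itgav* per kb of merged exon, 1.75 times per kb of coding sequence and 1.33 times without a length.

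**Figure D2:**
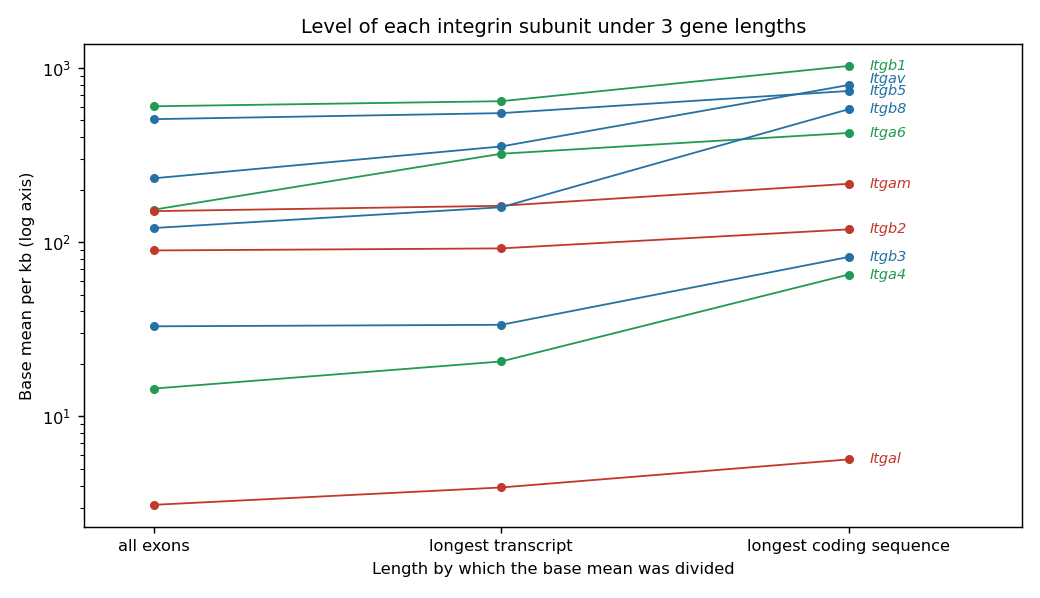
Base mean per kb (log axis) of each integrin subunit when divided by the length of all merged exons, of the longest transcript or of the longest coding sequence; colours mark the families as in the plot of levels. Lines cross where the order depends on the length: *Itgb8* rises from 120.5 to 579 per kb and *Itgav* from 232 to 797 per kb.

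Set against all integrin subunits, the 10 genes took most of the family's signal. All 26 mouse subunits looked for were in the table, and the 10 genes held 71.8% of their summed base mean per kb. *Itgb1* and *Itgb5* ranked 1 and 2 of the 26, *Itgav* 4, *Itga6* 6, *Itgam* 7, *Itgb8* 8 and *Itgb2* 9. The other genes of the first 10 were *Itga3* at 244 per kb, *Itgb4* at 229.8 per kb (226 to 234, which overlapped the interval of *Itgav*) and *Itga7* at 87.3 per kb, all subunits of laminin receptors. *Itgb3* ranked 13, *Itga4* 17 and *Itgal* 23. These ranks hold for merged exons: over the longest transcripts *Itga7* at 176 per kb stood above *Itgam* at 162 and *Itgb8* at 159. The platelet subunit *Itga2b*, the partner of beta3 in platelets, stood at 14.6 per kb.

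**Figure D3:**
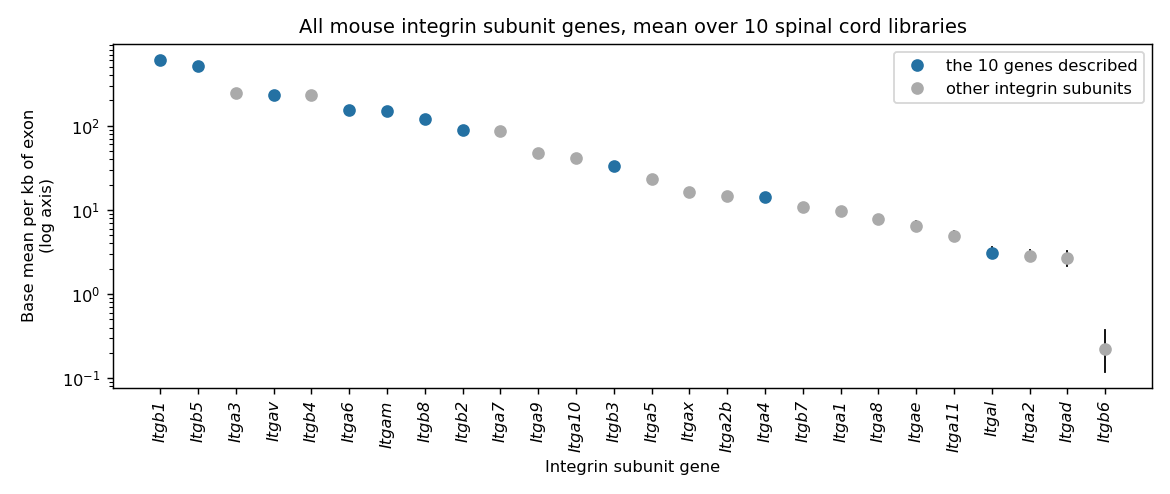
All 26 mouse integrin subunit genes ordered by base mean per kb of exon (log axis), with 95% counting intervals as black lines. The 10 genes described (blue) fill 7 of the first 9 places on merged exons, and *Itgb6* is lowest at 0.222 per kb.

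Beside cell type markers, *Itgam* and *Itgb2* lay near the low end of the microglial genes per kb of exon, and *Itgal* far below them. The 10 markers of microglia and macrophages had a median of 241 per kb. Only *Aif1* at 72.2 per kb and *Siglech* at 83.8 per kb lay below *Itgam* and *Itgb2*. The others lay above both, among them *Csf1r* at 527 per kb and *C1qa* at 1458 per kb. *Itgam* was at 0.727 times *Tmem119*, a marker of resident microglia, at 0.378 times when coding lengths were used and at 1.58 times without a length, so the order of this pair depended on the length. The 6 T and NK cell markers lay between 0.360 and 1.38 per kb and the 3 monocyte markers between 1.26 and 2.84 per kb. *Itgal* stood at 3.11 per kb (2.66 to 3.61). The 3 B cell markers lay between 0.700 and 7.30 per kb. The 4 markers of platelets and megakaryocytes were all above *Itgal*, between 6.44 and 14.7 per kb. The 4 endothelial markers, of cells that also carry beta1 integrins, lay between 101 and 501 per kb. The neutrophil genes *S100a9* and *S100a8* had 118 and 52.1 per kb. In RNA of whole tissue, few cells with much transcript and many cells with little cannot be told apart, and the cells that hold each integrin transcript were not tested.

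**Figure D4:**
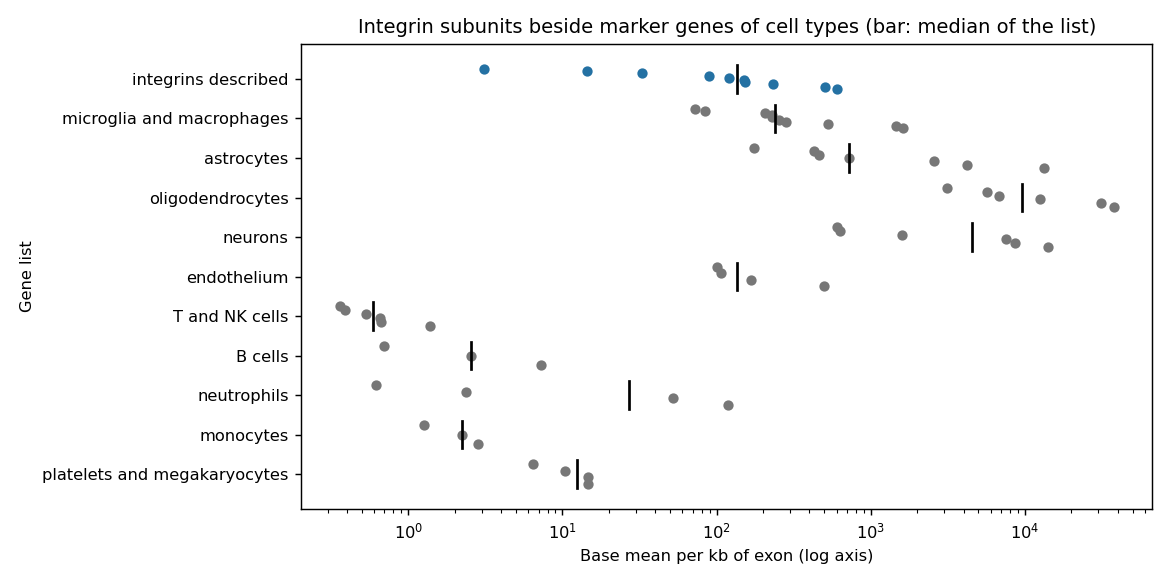
Base mean per kb of exon (log axis) of the 10 integrins (blue) and of marker genes of 10 cell types (grey), one point per gene, with the median of each list as a black bar. The integrins have a median of 136 per kb, between the lists of blood cells on the left and those of neurons and oligodendrocytes on the right.

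The genes of integrin ligands spanned a wide range, as did all 26 integrin subunits, which lay between 0.222 and 602 per kb. Of 27 symbols listed for ligands and TGF-beta presentation, 26 were in the table, and the missing one, *Lrrc33*, is an older symbol of *Nrros*, which was listed as well. The 26 ranged from 0.660 to 2002 per kb with a median of 33.3, and 0 of them had a base mean of 0. The highest were *Spp1* (osteopontin, a ligand of alphav integrins) at 2002 per kb, *Vtn* (vitronectin) at 849.5 and *C3*, the complement protein whose fragment iC3b is bound by complement receptor 3, at 577. The genes named from here to the end of the paragraph were chosen after their values were seen. *Icam1* and *Icam2*, ligands of LFA-1, had 23.6 and 32.8 per kb, and *Vcam1*, a ligand of VLA-4, had 63.2 per kb. *Tgfb1*, *Tgfb2* and *Tgfb3* had 28.1, 64.5 and 191 per kb. *Nrros*, which presents latent TGF-beta on microglia, had 31.8 per kb, against 18.7 for *Lrrc32*, its relative on other cells. The fibrinogen chains *Fga*, *Fgb* and *Fgg* lay between 0.660 and 1.85 per kb.

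Transcripts of proteins that act on integrins inside the cell, as activators, adaptors or kinases, were also counted. All 20 listed activators, adaptors and kinases were in the table, between 0.333 and 738 per kb with a median of 177. The highest were *Ilk*, the integrin-linked kinase, at 738 per kb, *Rap1a* at 577 and *Fermt2*, the kindlin of most tissues, at 525. Chosen after their values were seen, the forms typical of blood cells were lower, with *Fermt3* (kindlin-3) at 31.2 and *Parvg* (gamma-parvin) at 30.4 per kb. *Fermt2* was 16.8 times higher than *Fermt3*, and *Parva* was 13.5 times higher than *Parvg* per kb of merged exon and 45.8 times higher per kb of coding sequence.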

How the data were processed

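RNA of the spinal cord of 5 *SOD1G93A* and 5 WT females was sequenced as paired reads from stranded mRNA libraries. Per the methods and the labels, the authors filtered reads with Fastp, aligned them to mm10 with HISAT2 2.1.0, counted unique reads on genes with featureCounts 2.0.2 and normalized with DESeq2. Whether counting was per read or per pair, the strand setting, the gene annotation and the DESeq2 version are not given in the sources used here. The authors deposited 1 table, whose base mean is a signal averaged over all libraries (counts divided by size factors). Its other columns hold the log2 fold change of their genotype comparison, the standard error, the Wald statistic, the p-value and the adjusted p-value, and they were not used, so no test was run.

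Symbols were matched to GENCODE M21 (GRCm38), where 24312 of the 25232 genes had a single entry, and the base mean was divided by the length of the merged exons. Size factors were read from the lowest base means, and the Poisson intervals were computed from them. That reading and the intervals were tested on simulated data. For the intervals these were Poisson counts, the model that the intervals assume, so only the computation was checked. The merging of exons and the percentile were checked on small cases with known answers. Percentiles refer to genes above 0, and 100-base stretches were compared on both strands.

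All 10 genes were to be described in full, and of each other list the number found, the range, the 3 highest and any gene at 0. Other integrins and marker genes that are named beyond this rule were chosen after their values were seen. Some marker genes are not reported here. The genes and lists were chosen with earlier results of these data known. The alternatives were other gene lengths, a base mean of at least 10 and protein-coding genes alone. Python 3.11.15, numpy 2.4.6, pandas 2.3.3, scipy 1.17.1 and matplotlib 3.10.9 were used.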

Additional observations from a re-analysis of the deposited data

How the results depend on the processing

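For most of the 10 genes, the choice of length changed the value by more than counting error. The longest transcript and the coding sequence cannot exceed the merged exons, so they can only raise a level per kb. The base mean without a length is in other units. Over the longest transcript, *Itgb2* and *Itgb3* stayed within their counting intervals. The median of the 10 integrins was 136 per kb of merged exon, 160.1 over the longest transcript, 319.8 over the coding sequence (chosen after seeing the data) and 1045 as base mean without a length. The order of the genes was kept for 45 of 45 pairs over the longest transcript, 42 over the coding sequence and 41 without a length. *Itgb2* was number 7 and *Itgal* number 10 under each of these lengths, while *Itgav* moved between 1 and 3. The share of the 10 genes in the integrin family stayed between 68.9% and 75.6%. The alpha partners per *Itgb2* stood at 3.17 without a length, against 1.93. The beta partners per *Itgav* stood at 3.92 over the longest transcript, 3.04 over the coding sequence and 2.32 without a length, against 5.44. The median percentile of the 10 genes was 64.7, and it was 54.0 when genes under a base mean of 10 were left out, 75.0 for the base mean without a length and 60.5 among protein-coding genes. No paired analysis was possible because the table holds 1 mean over all libraries, and for the same reason leaving out a library was not run. Coding lengths from a protein table were not run. The reads behind a gene were fewest for *Itgal*, where the counting interval was widest relative to the level.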
